A study of Mus musculus with 27 samples.

Results

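The miR-125 family is the vertebrate counterpart of lin-4, the worm microRNA that times larval development. It was followed here through all small-RNA libraries of a study of the mouse suprachiasmatic nucleus (SCN), the hypothalamic clock that sets daily rhythms. Members were taken by name alone, as every mature miRNA whose name begins with miR-125a- or miR-125b-. Of 844 names in all tables, 5 members met that rule, namely miR-125a-5p, miR-125a-3p, miR-125b-5p, miR-125b-1-3p and miR-125b-2-3p. All mice were C57BL/6, and the labels give no other allele, no age and no sex. First, SCN, hypothalamus and cortex tissue gave 2 libraries each. In a second, SCN tissue was taken at 11 zeitgeber times (ZT), every 4 h from ZT2 to ZT42, with 1 library per time. A part on cell types held 2 libraries each of SCN neurons called AVP (the peptide vasopressin), VIP (vasoactive intestinal peptide) and CCK (cholecystokinin). The fourth compared SCN tissue labelled CTRL with SCN tissue labelled LP, 2 libraries each, at CT18 (circadian time 18 h). LP is not spelled out in the labels, and the design text of the series names a light response as the question. The labels do not say how the neurons were collected or whether replicates came from separate animals, so p-values measure the spread between these libraries, which may be technical.

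A miRNA precursor is a hairpin with a strand on each arm, called 5p and 3p. One strand is usually loaded into an Argonaute protein, which it guides to target mRNAs mainly through the seed, bases 2 to 8 from its 5′ end, and the other strand is mostly degraded. In the brain miR-125 is known for its part in neuronal differentiation and in the control of translation at synapses, and lin-28 is a classical target in worms and mammals. The mouse makes the family from 3 precursors, each in a cluster with a miR-99 or miR-100 gene and a let-7 gene.

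The mature strands are shown because their shared and differing bases decide which members can be told apart in sequencing. Sequences are from RefSeq (build GRCm38.p6) and all 5 members matched. Capitals mark the seed, and the last sequence is the further miRNA in the tables that carries the same 5p seed.
miR-125a-5p: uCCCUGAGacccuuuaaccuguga
miR-125b-5p: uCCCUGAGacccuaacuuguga
miR-125a-3p: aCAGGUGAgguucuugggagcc
miR-125b-1-3p: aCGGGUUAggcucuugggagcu
miR-125b-2-3p: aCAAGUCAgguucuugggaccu
miR-351-5p: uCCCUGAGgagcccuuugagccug
The 5p strands of miR-125a (24 bases) and miR-125b (22 bases) have the same first 13 bases and an edit distance of 3. The seed CCCUGAG occurs in 5 mature names of the RefSeq table, of which miR-125a-5p, miR-125b-5p and miR-351-5p are in the deposited tables. The 3p strands differ from each other in the seed, and each of their seeds occurs in 1 name only. Reads of miR-125a-5p and miR-125b-5p that were trimmed short could not be assigned with certainty, and the rule by which such reads were counted is not given in the sources used here.

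Mir125a lies at chr17:17830812-17830879 on the plus strand, in an exon of the protein-coding gene Spaca6 (GENCODE M21, GRCm38). Mir99b and Mirlet7e lie in an intron of the same gene, 554 and 367 bases away. The strand miR-125b-5p is made from both Mir125b-1, at chr9:41581926-41582002, and Mir125b-2, at chr16:77646273-77646343, and its level is the sum of both. Mir125b-1 sits in introns of the noncoding genes 3110039I08Rik and Gm49317, with Mir100 50421 and Mirlet7a-2 45114 bases away. Mir125b-2 sits in an intron of the noncoding gene Mir99ahg, with Mir99a 47272 and Mirlet7c-1 46522 bases away. The 3p strands miR-125b-1-3p and miR-125b-2-3p each come from 1 of these copies, so their reads can be assigned to a locus.

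Libraries held 469808 to 5133920 miRNA reads, and CCK neurons were the shallowest, with 469808 and 487360. Levels are given in CPM, reads scaled to the same total in every library (the deposited value divided by 10), and 3 reads, the floor below which 0 reads cannot be told from a low level, came to 0.584 to 6.39 CPM. Intervals and floors cover counting error only. The 4 neuronal miRNAs checked (miR-124-3p, miR-128-3p, miR-9-5p and miR-9-3p) summed to 3019 to 17937 CPM in the libraries labelled as neurons, below the 35963 to 40686 of SCN tissue and the 156331 to 162630 of cortex. Oligodendrocyte miRNAs (3 of 5 listed markers found) summed to 20.9 to 595 CPM in the neuron libraries, leukocyte miRNAs (5 of 7) to 0 to 159, red-cell miRNAs (3 of 4) to 0 to 17 and vascular miRNAs (4 of 7) to 3.3 to 176.5, with miR-219-5p and miR-142-5p at 0 in all of them. Choroid plexus and ciliated-cell miRNAs (5 of 5 listed names found) summed to 7564 and 9453 CPM in VIP, 1500 and 1914 in CCK and 83.8 and 290 in AVP neurons. Of these 5, only 1 was above 0 in VIP replicate 1 and 2 in VIP replicate 2. miR-34b-3p, miR-34b-5p and miR-449a-5p were at 0 in every AVP and VIP library, and miR-34b-5p and miR-449a-5p in every CCK library. The part of these miRNAs in the results on neurons was not tested.

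The family was among the most abundant miRNAs of every library. It took 25.7% ± 1.24 of the miRNA reads in SCN tissue (mean ± SD, n = 2), 9.40% ± 0.357 in hypothalamus and 6.50% ± 0.764 in cortex. Along the time course the share was 27.9% ± 3.37 (n = 11), from 21.1% to 31.8%. Among neurons, AVP libraries gave 28.8% ± 3.61, VIP libraries 40.7% ± 7.15 and CCK libraries 29.4% ± 0.374 (n = 2 each). At CT18 it was 25.4% ± 0.438 in CTRL and 22.6% ± 5.32 in LP tissue (n = 2 each). Nearly all of this came from the 5p strands. By rank, miR-125a-5p was among the first 3 miRNAs in every library from the SCN and stood 6th in hypothalamus and 9th and 13th in cortex. In the same SCN libraries miR-125b-5p ranked from 1 to 6, with rank 5 and rank 6 in AVP neurons.

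The order of the levels over the 9 groups differed between the 5p strands. For miR-125a-5p it ran from VIP neurons (336839 CPM ± 81685) through AVP neurons (250922 ± 28888), CCK neurons (183538 ± 290.2), the SCN time course (139179 ± 19486) and SCN tissue (124059 ± 4989.8) to CTRL (107553 ± 3733) and LP tissue (90948 ± 31853), hypothalamus (34401 ± 1592) and cortex (25572 ± 3237). Neighbours in that order overlapped only between the time course and SCN tissue and between CTRL and LP. For miR-125b-5p the order was CTRL tissue (146463 ± 619), the time course (139967 ± 16640), LP tissue (135439 ± 21452), SCN tissue (132572 ± 7367), CCK neurons (110063 ± 3335), VIP neurons (70724 ± 10290), hypothalamus (59119 ± 1984), cortex (39021 ± 4400) and AVP neurons (37368 ± 7394). Neighbours among the first 4 of these overlapped, as did cortex and AVP neurons, while the other neighbours did not. All neuron types thus stood above every tissue group for miR-125a-5p, while for miR-125b-5p CCK neurons were 5th, VIP neurons 6th and AVP neurons last. Groups of different parts of the study may be different batches, so this order is a description and no test was run between parts.

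**Figure D1:**
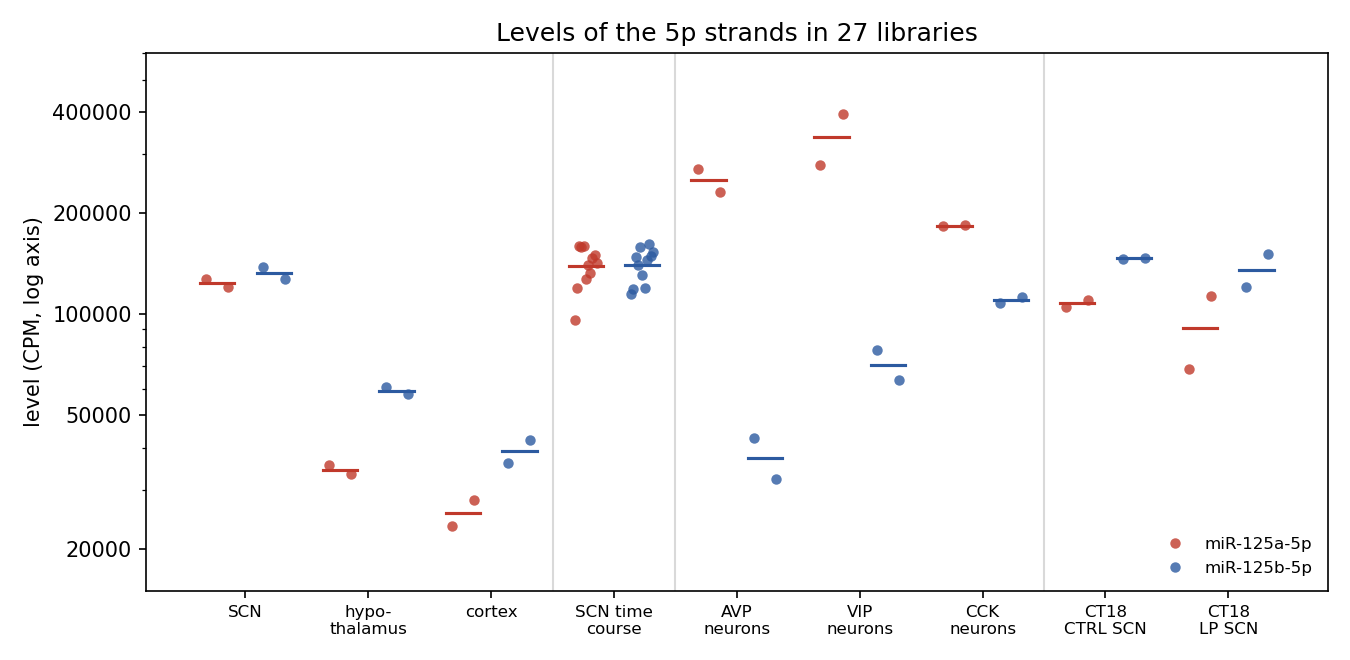
Level of miR-125a-5p (red) and miR-125b-5p (blue) in CPM on a log axis, 1 point per library, with a bar at the mean of each group and grey lines between the 4 parts of the study. The 2 strands lie close together in SCN tissue and the time course, while in AVP neurons miR-125a-5p stands at 271349 and 230496 CPM and miR-125b-5p at 42597 and 32140.

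Against hypothalamus and cortex the question was which miRNAs distinguish the SCN. Both 5p strands, the ones that carry the lin-4 seed, were higher in the SCN than in either tissue, and miR-125a-5p was higher by more than miR-125b-5p. miR-125a-5p stood at 127587 and 120530 CPM in the SCN libraries, 35526 and 33275 in hypothalamus and 23283 and 27861 in cortex. It was 3.61-fold higher in the SCN than in hypothalamus (log2 difference 1.85 ± 0.09 SE, limma adjusted p = 1.13e-06) and 4.85-fold higher than in cortex (2.28 ± 0.09, adjusted p = 3.98e-08). miR-125b-5p stood at 137781 and 127363 CPM in the SCN, 60522 and 57716 in hypothalamus and 35910 and 42133 in cortex. Its SCN level was 2.24-fold that of hypothalamus (1.16 ± 0.09, limma adjusted p = 6.19e-06) and 3.40-fold that of cortex (1.77 ± 0.09, adjusted p = 1.27e-07). The 3 tissues did not overlap for either strand, which held for 87.3% of all tested miRNAs between SCN and hypothalamus, 90.2% between SCN and cortex and 83.9% between hypothalamus and cortex.

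The 3p strands parted ways between these tissues. miR-125a-3p, the other strand of Mir125a, stood at 59.7 and 53.5 CPM in the SCN, 19.7 and 23.8 in hypothalamus and 9.1 and 14.9 in cortex, and was 2.60-fold higher in the SCN than in hypothalamus (log2 difference 1.38 ± 0.29 SE, limma adjusted p = 0.00226) and 4.72-fold higher than in cortex. miR-125b-1-3p, the strand that reports the chromosome 9 copy, stood at 151 and 126.9 CPM, 81.9 and 96.9, and 54.7 and 53.9 in the same order. It was 1.55-fold higher in the SCN than in hypothalamus (0.64 ± 0.17, limma adjusted p = 0.00827, and 0.0785 without hypothalamus replicate 1) and 2.56-fold higher than in cortex. miR-125b-2-3p, from the chromosome 16 copy, was the member that fell. Its levels were 217.4 and 173.8 CPM in the SCN against 384.8 and 384 in hypothalamus and 317.9 and 323.2 in cortex. It was 1.97-fold lower in the SCN than in hypothalamus (log2 difference -0.98 ± 0.14 SE, limma adjusted p = 0.000261) and 1.64-fold lower than in cortex (-0.72 ± 0.14, adjusted p = 0.00126). So 4 of 5 members were higher and 1 lower in the SCN in each of these comparisons. The background was wide: 70.9% of the 378 miRNAs tested passed the adjusted p of 0.05 between SCN and hypothalamus, 28.0% higher and 42.9% lower, with a median log2 fold change of -0.29 over all tested miRNAs against 1.16 over the members. Between SCN and cortex 80.2% passed, 41.3% higher and 38.9% lower, with medians of 0.06 and 1.77.

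Hypothalamus and cortex, the reference pair, differed less. All members but miR-125b-2-3p were called higher in hypothalamus, miR-125a-5p 1.35-fold (log2 difference 0.43 ± 0.09 SE, limma adjusted p = 0.00317) and miR-125b-5p 1.52-fold (0.60 ± 0.09, adjusted p = 0.000299). In this pair 58.2% of all miRNAs passed, with 41.8% passing as higher in hypothalamus, and the median of all tested miRNAs was 0.41, close to the value of miR-125a-5p. Scaling by median ratios, which sets the typical miRNA equal between libraries, moved the comparison by -0.42 on the log2 scale and ended the calls of miR-125a-5p (0.01, adjusted p = 0.925) and miR-125b-5p (0.18, adjusted p = 0.109). The calls of both 5p strands between the SCN and the other tissues held under every alternative run.

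In these bulk tissues fewer cells of a type and less RNA per cell cannot be told apart. Vascular miRNAs summed to 3850 and 3863 CPM in the SCN against 10880 to 11612 in hypothalamus and 10825 to 11369 in cortex, and the neuronal miRNAs to 35963 and 40686 against 54902 to 57500 and 156331 to 162630. Oligodendrocyte miRNAs summed to 829 and 1288 CPM in the SCN, 3247 to 3826 in hypothalamus and 1310 to 1781 in cortex. Leukocyte miRNAs summed to 1892 and 2073 CPM in the SCN, 2477 and 2688 in hypothalamus and 3297 and 3538 in cortex. Only the sum of choroid plexus and ciliated-cell miRNAs ran in the direction of the 5p strands, with 8602.5 and 8865.3 CPM in the SCN, 7208.8 and 7416.6 in hypothalamus and 1173.5 and 1329.2 in cortex. Not every name on that list followed the sum, as miR-449a-5p was at 0 in the SCN libraries while all 5 were above 0 in both hypothalamus libraries. Red-cell miRNAs were lowest in the SCN (32.4 and 39.1 CPM) and stood at 257.1 and 514.6 in hypothalamus and 381.3 and 441.2 in cortex. The part of these cell types in the differences of the miR-125 family was not tested.

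The balance between the 5p strands within a library is left as it is by any single scale factor per library, though not by quantile normalization, which reassigns values by rank and turned the direction for VIP against CCK neurons (to a log2 difference of -0.71) and for hypothalamus against cortex (to 0.19). A ratio within 1 library also carries how well each strand was ligated and amplified, which was not measured, so ratios are compared only between libraries. miR-125a-5p over miR-125b-5p was 0.926 and 0.946 in the SCN, 0.587 and 0.577 in hypothalamus and 0.648 and 0.661 in cortex. The SCN ratio was 1.61-fold that of hypothalamus and 1.43-fold that of cortex, and that of hypothalamus 1.13-fold below that of cortex. The libraries did not overlap in any of these pairs, which gave an exact two-sided permutation p of 0.333 each, the smallest that 2 against 2 libraries allow (0.389 after Benjamini-Hochberg adjustment over the 7 ratio comparisons of the study).

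In neurons the ratio spread much further. It was 6.37 and 7.17 in AVP, 3.58 and 6.22 in VIP and 1.70 and 1.63 in CCK neurons, all above the highest ratio of any tissue library (1.17, at ZT26). The AVP ratio was 4.05-fold and the VIP ratio 2.83-fold that of CCK neurons, and AVP was 1.43-fold above VIP, where VIP replicate 2 came near the AVP libraries. Each of these pairs did not overlap, again with an exact permutation p of 0.333, the smallest possible. miR-125a-5p made up 87.0% of the family's reads in AVP neurons, 82.1% in VIP neurons and 62.4% in CCK neurons, compared with 48.3% in SCN tissue.

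**Figure D2:**
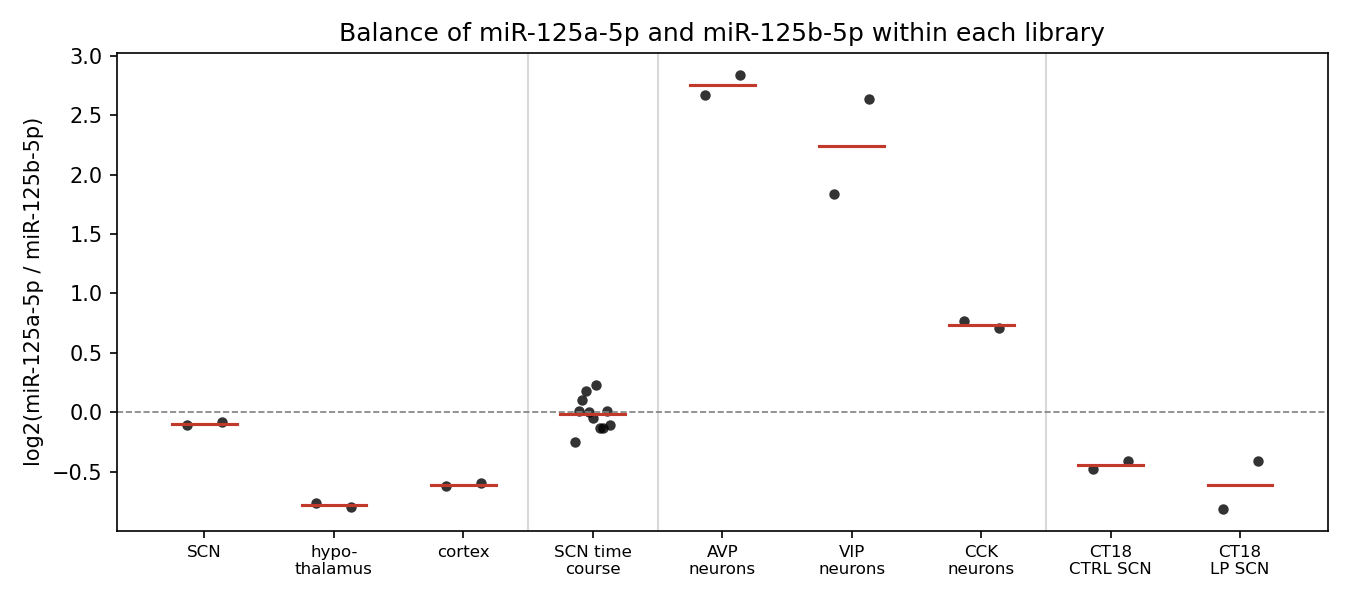
log2 of the ratio of miR-125a-5p to miR-125b-5p within each library, 1 point per library, with a red bar at the group mean, a dashed line where both are equal and grey lines between the parts. AVP and VIP neurons lie highest, CCK neurons between 1.63 and 1.70 on the linear scale, and hypothalamus and cortex below the SCN tissue beside them.

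The neuron types were compared to ask whether the neuropeptide classes of the SCN differ in miRNAs. Libraries of the 3 types did not overlap for either 5p strand, and miR-125b-5p, lowest in AVP neurons, passed the test in both pairs with AVP. miR-125b-5p stood at 42597 and 32140 CPM in AVP, 78000 and 63448 in VIP and 107705 and 112421 in CCK neurons. Groups that do not overlap were found for 64.6%, 58.0% and 62.6% of all miRNAs tested between AVP and VIP, AVP and CCK, and VIP and CCK neurons. It was 2.95-fold lower in AVP than in CCK neurons (log2 difference -1.57 ± 0.19 SE, limma adjusted p = 0.0108) and 1.89-fold lower than in VIP neurons (-0.93 ± 0.19, adjusted p = 0.0230). Between VIP and CCK neurons its difference did not pass (-0.65 ± 0.19, limma adjusted p = 0.0685).

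miR-125a-5p stood at 271349 and 230496 CPM in AVP, 279079 and 394599 in VIP and 183332 and 183743 in CCK neurons. Only the difference between VIP and CCK neurons passed (1.84-fold, log2 difference 0.85 ± 0.20 SE, limma adjusted p = 0.0414). Against AVP neurons, VIP gave a log2 difference of -0.41 ± 0.20 (AVP minus VIP, limma adjusted p = 0.195) and CCK one of 0.45 ± 0.20 (adjusted p = 0.252). None of the 3p strands passed in any pair of neuron types. Members that passed numbered 1 of 5 in each pair, beside a background of 32.8% of 305 miRNAs between AVP and VIP (14.8% lower), 16.7% between AVP and CCK (14.1% lower) and 29.8% between VIP and CCK (8.20% higher). The median of all tested miRNAs was 0.26, -0.45 and -0.93 in these pairs, and that of the members -0.41, -1.29 and -0.67.

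These calls depend on few libraries. The call of miR-125b-5p between AVP and VIP was lost without AVP replicate 2 or VIP replicate 1 (limma adjusted p = 0.0639 and 0.0701), and that between AVP and CCK without either CCK replicate (0.0989 and 0.109). The call of miR-125a-5p between VIP and CCK was lost without VIP replicate 2, CCK replicate 1 or CCK replicate 2 (0.0534, 0.200 and 0.188), with the replicate number as a block (0.0823) and after quantile normalization, which left a difference of 0. In the same pair miR-125b-5p turned from -0.65 to 0.18 with median-ratio scaling and to 0.71 with quantile normalization, where it passed in the opposite direction (limma adjusted p = 0.0424). Median-ratio scaling moved the median log2 difference of all tested miRNAs by -0.31, 0.16 and 0.76 for AVP against VIP, AVP against CCK and VIP against CCK. A total without the family moved it by -0.26, -0.013 and 0.26. In AVP against VIP miR-125a-5p moved by more than that median, from -0.41 to -1.06 with median-ratio scaling. That scaling divides each library by a single factor, so abundant miRNAs move alike and the step is not particular to this member.

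The 3p strands of miR-125b, which tell its 2 loci apart, spread widely between neuron libraries, although no difference between types passed. miR-125b-2-3p, the chromosome 16 strand, stood at 160.4 and 0 CPM in AVP, 3.5 and 11.1 in VIP and 166.1 and 92.4 in CCK neurons. Its partner from chromosome 9, miR-125b-1-3p, was present in all of them, at 91.4 and 123.5 CPM in AVP, 88.2 and 200.4 in VIP and 176.8 and 254.7 in CCK. Both VIP libraries lay below both CCK libraries for miR-125b-2-3p, but the AVP replicates disagreed with each other, 86 reads against 0, where 0 reads allow up to 3.30 CPM. That library held 112 reads of miR-125b-1-3p, so the 3p reads of miR-125b were not missing altogether. miR-125a-3p stood at 57.8 and 252.5 CPM in AVP, 60.8 and 115.6 in VIP and 217.3 and 404.6 in CCK neurons, with SCN tissue at 59.7 and 53.5.

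Among the 3p reads of miR-125b, those from chromosome 16 made up 59.0% and 57.8% in SCN tissue, 82.4% and 79.9% in hypothalamus and 85.3% and 85.7% in cortex. The exact 95% binomial (Clopper-Pearson) interval reached from 54.8% to 62.4% over the SCN libraries and from 77.3% to 88.1% over the others, so the tissues differed by more than counting error. Along the time course the share was 58.7% ± 3.91 (n = 11, 53.3% to 64.2%), next to that of the separate SCN tissue libraries. VIP neurons gave 3.88% (10 of 258 reads, interval 1.87% to 7.01%) and 5.26% (31 of 589, 3.60% to 7.39%). CCK neurons gave 48.4% (40.5% to 56.4%) and 26.6% (20.1% to 33.96%), and AVP neurons 63.7% (55.0% to 71.8%) and 0% (upper bound 3.24%). Both VIP libraries thus lay far below every tissue library, while replicates disagreed in AVP and CCK neurons. AVP replicate 2 and both CCK libraries also lay below every tissue library. Neurons and tissue belong to different parts of the study, which may be different batches, and no test was run between them.

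SCN tissue at CT18 stood apart from the other SCN tissue in the same measure. The chromosome 16 copy gave 97.9% and 96.4% of the 3p reads in CTRL and 97.7% and 95.7% in LP libraries. miR-125b-1-3p, from chromosome 9, was at 3.3 and 6.2 CPM in CTRL and 5.0 and 6.8 in LP tissue (6 to 20 reads), compared with 126.9 and 151 CPM in SCN tissue and 157.4 to 264.9 along the time course. miR-125b-2-3p was at 152.8 to 213.5 CPM in these libraries, compared with 173.8 and 217.4 in SCN tissue and 229.7 to 359.3 along the time course. Several marker sums also differed between CT18 and the time course. Vascular miRNAs were lower at CT18, with 794 to 1479 CPM against 3185 to 6190, as were choroid plexus and ciliated-cell miRNAs (1923 to 2825.9 against 3636 to 6027). Red-cell miRNAs were higher (93.6 to 148.7 against 35.2 to 78), as were oligodendrocyte miRNAs (1307 to 1498 against 683 to 1248.5). The neuronal and leukocyte sums overlapped. The CT18 samples form a part of their own, so its time, its batch and its other conditions cannot be told apart.

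**Figure D3:**
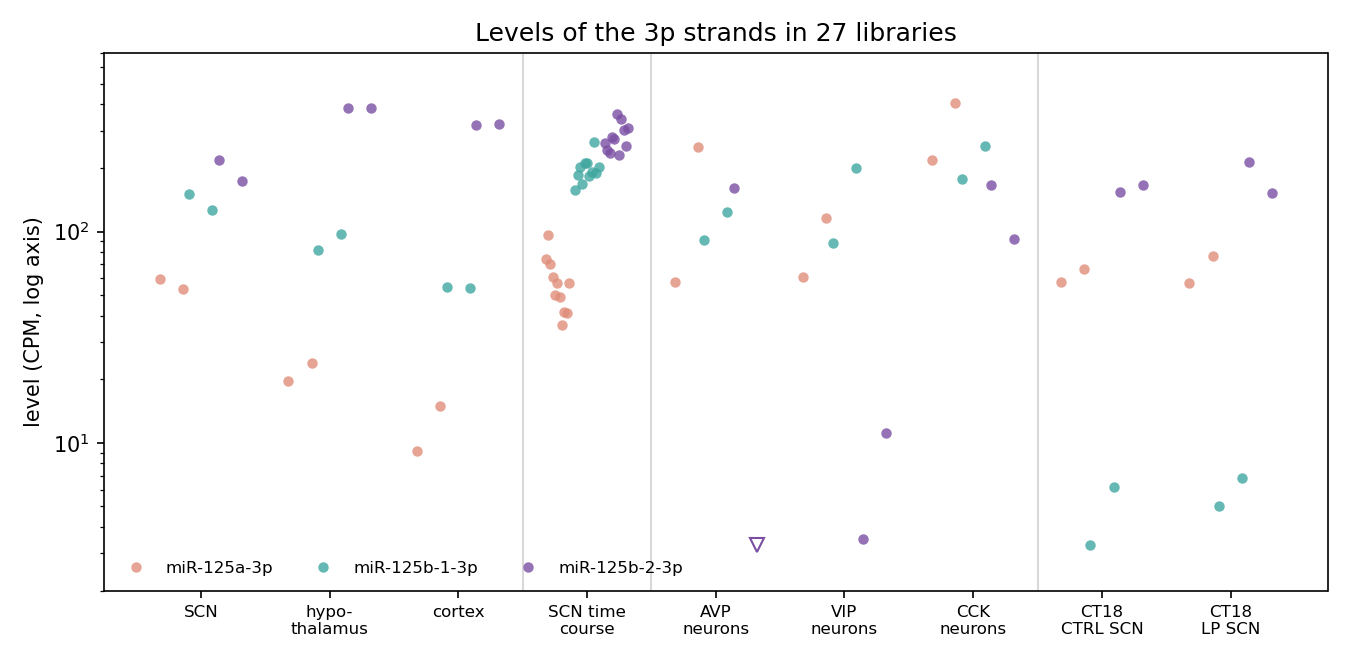
Level of miR-125a-3p (orange), miR-125b-1-3p (green) and miR-125b-2-3p (purple) in CPM on a log axis, 1 point per library, with grey lines between the parts. The open triangle marks AVP replicate 2, with 0 reads of miR-125b-2-3p, drawn at its floor of 3.30 CPM, and the green points fall to 3.3 to 6.8 CPM at CT18.

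Relative to the 5p strand, the 3p strands were a small fraction everywhere. miR-125a-3p made up 0.0456% ± 0.00165 of the reads of Mir125a in SCN tissue, 0.0636% ± 0.0115 in hypothalamus and 0.0463% ± 0.0101 in cortex (n = 2 each). In CCK neurons it reached 0.118% and 0.220%, against 0.0218% and 0.0293% in VIP and 0.0213% and 0.109% in AVP neurons. For miR-125b the 3p share was 0.251% ± 0.0220 in SCN tissue, 0.796% ± 0.0432 in hypothalamus and 0.957% ± 0.0990 in cortex (n = 2 each), so the SCN held fewer 3p reads per 5p read. At CT18 it was lower still, 0.113% ± 0.00691 in CTRL and 0.144% ± 0.0534 in LP tissue.

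Along the SCN time course the question was whether miRNAs cycle with the day. Neither 5p strand passed the test of a 24 h rhythm. miR-125a-5p ranged from 96276 CPM at ZT2 through a median of 142299 to 159267 at ZT18, and miR-125b-5p from 114851 at ZT2 through 144984 to 161534 at ZT34. Both were lowest at ZT2 and stayed within 1.65-fold and 1.41-fold over the 11 times. The fitted amplitude on the log2 scale was 0.23 for miR-125a-5p (limma p = 0.0375, adjusted p = 0.950) and 0.18 for miR-125b-5p (p = 0.0705, adjusted p = 0.950). Of 357 miRNAs tested none passed (0%), and 6 (1.68%) had an unadjusted p under 0.05. No 3p strand passed either (limma adjusted p = 0.950 for each), and their ranges were 36 to 96.5 CPM for miR-125a-3p, 157.4 to 264.9 for miR-125b-1-3p and 229.7 to 359.3 for miR-125b-2-3p.

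Times 24 h apart, which a daily rhythm would bring to the same level, were compared for 5 pairs. For miR-125a-5p the later time was 1.45-fold the earlier at ZT26 against ZT2, 1.11-fold at ZT30 against ZT6, and 0.925, 0.952 and 0.893 times the earlier for the pairs from ZT10, ZT14 and ZT18. The step between ZT2 and ZT26 compares with a range of 1.65-fold over all times. For miR-125b-5p the ratios were 1.04, 1.22, 1.09, 1.07 and 0.966 in the same order.

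Libraries ZT2, ZT6 and ZT10 stood apart from the other 8 in the let-7 partners of the family. let-7e-5p was at 4646.5, 5361.7 and 6311.5 CPM in them and at 1839.5 to 2847.4 in the others, and miR-99b-5p, from the same cluster, was at 19304 to 22152 against 28642 to 38955. Without these times, a choice made after seeing the data, the amplitudes were 0.12 for miR-125a-5p and 0.14 for miR-125b-5p (limma adjusted p = 0.987 for both). Over the 11 times miR-125a-5p and miR-125b-5p were correlated (Pearson r = 0.757, permutation p = 0.0082, Spearman rho = 0.727, permutation p = 0.0150), on levels that share the total of their library. Among 325 candidates over these times, miR-125b-5p came 3rd in likeness to miR-125a-5p, and miR-125a-5p came 2nd for miR-125b-5p. Only this pair was given a p-value, which was not adjusted for the other candidates. Without ZT2 and ZT6, the times farthest from the median of miR-125a-5p, r was 0.470 (permutation p = 0.215), and without ZT2, ZT6 and ZT10 it was 0.473 (permutation p = 0.243). The relation passed the threshold only with those times included, and leaving them out also narrows the range and the number of times. Their ratio stayed between 0.838 (ZT2) and 1.17 (ZT26), with a 24 h amplitude of 0.04 on the log2 scale (permutation p = 0.819).

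**Figure D4:**
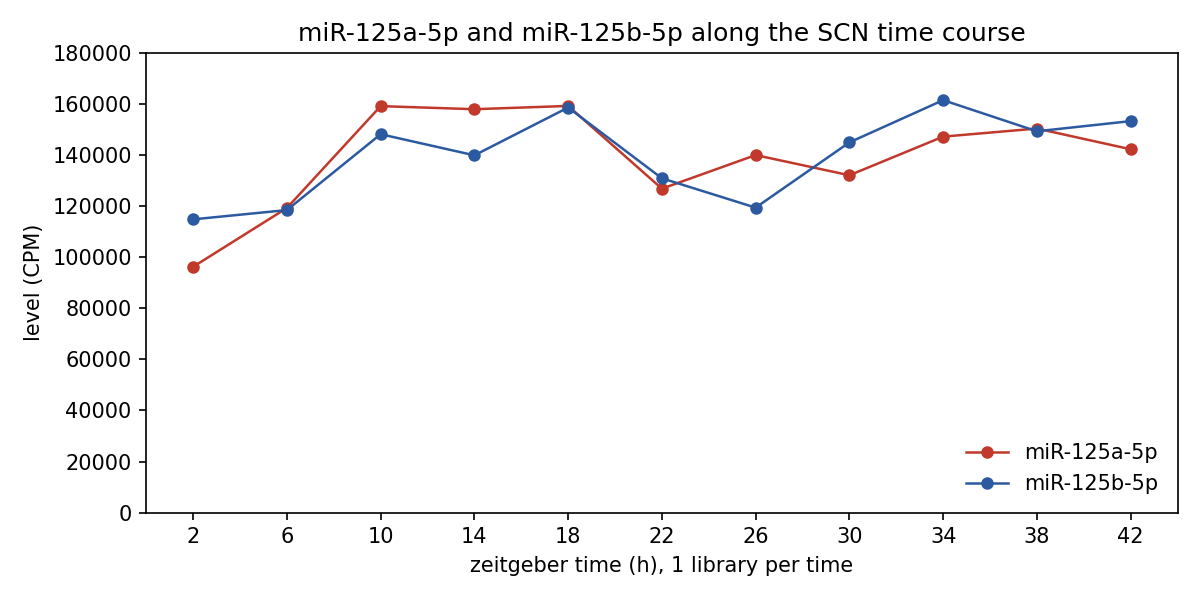
Level of miR-125a-5p (red) and miR-125b-5p (blue) in CPM at 11 zeitgeber times in hours, 1 library per time and so no error bar. Both lines are lowest at ZT2, with 96276 and 114851 CPM, and at ZT26, a day later, they stand at 140021 and 119435.

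At CT18 the LP tissue was compared with CTRL tissue, and no member passed. miR-125a-5p stood at 104913 and 110192 CPM in CTRL and 68424 and 113471 in LP libraries, so the LP replicates lay on either side of both controls (log2 difference -0.29 ± 0.24 SE, limma adjusted p = 0.992). miR-125b-5p stood at 146025 and 146900 against 120270 and 150608 CPM (-0.12 ± 0.15, limma adjusted p = 0.992). Both strands were low in LP replicate 1, and the ratio of miR-125a-5p to miR-125b-5p was 0.718 and 0.750 in CTRL against 0.569 and 0.753 in LP tissue (exact permutation p = 1). miR-125a-3p and miR-125b-2-3p did not pass, CTRL and LP libraries overlapped for every tested member (18.6% of all miRNAs did not overlap), and miR-125b-1-3p was too low to be tested. In limma none of the 317 miRNAs tested passed (0%), and 1 (0.315%) had an unadjusted p under 0.05. Without LP replicate 2, when LP replicate 1 alone stood for its group and was assumed to vary like the controls, 21 miRNAs passed, among them miR-125a-5p (-0.65, adjusted p = 0.00687). Without LP replicate 1 the difference was 0.08.

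The neighbours of the family in its clusters followed it only in part. Of the 13 strands listed as cluster partners 12 were in the tables, and these lists were drawn up with earlier results of the same data known. Between SCN and hypothalamus 4 of the 8 tested partners were higher, 2 lower and 2 did not pass, against 70.9% of all miRNAs that passed. On chromosome 17 miR-99b-5p was at 26548 CPM ± 1277 in the SCN and 19154 ± 12.6 in hypothalamus, 1.39-fold higher (limma adjusted p = 0.000454), and let-7e-5p at 6479 ± 1432 and 4006 ± 61.4, 1.62-fold higher (adjusted p = 0.00184). They rose less than miR-125a-5p, which lies beside them. On chromosomes 16 and 9, miR-99a-5p was 1.85-fold lower in the SCN (48848 ± 1084 against 90473 ± 5621 CPM, limma adjusted p = 7.10e-06) and miR-100-5p 2.24-fold lower (11582 ± 598 against 25931 ± 466, adjusted p = 4.46e-06). These 2 strands differ by 1 base, and they fell where miR-125b-5p, made from the same clusters, rose. Between SCN and cortex 3 partners were higher, 2 lower and 3 did not pass, against 80.2% of all miRNAs that passed, with miR-99a-5p 1.55-fold and miR-100-5p 1.74-fold lower.

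Within each library, miR-125b-5p over miR-99a-5p was 2.78 and 2.65 in the SCN, 0.700 and 0.611 in hypothalamus and 0.467 and 0.568 in cortex. A single scale factor per library leaves such ratios as they are, while quantile normalization can change them. miR-125b-5p over miR-100-5p was 12.3 and 10.6 in the SCN, 2.30 and 2.25 in hypothalamus and 1.76 and 2.12 in cortex. SCN libraries of the time course gave 1.82 to 3.52 and 6.14 to 14.7 for these ratios, above both other tissues in every library. miR-125b-5p has 2 source loci while miR-99a-5p and miR-100-5p have 1 each in the annotation used, so the ratios mix the loci.

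In the neuron libraries the strands of the chromosome 17 cluster did not move together. let-7e-5p, a member of the let-7 family that opposes lin-28 as miR-125 does, was at 1868 CPM ± 10.7 in AVP neurons, 24705 ± 3288 in VIP and 16180 ± 1430 in CCK neurons (n = 2 each). It was 13.2-fold lower in AVP than in VIP (log2 difference -3.72 ± 0.16 SE, limma adjusted p = 0.000577) and 8.66-fold lower than in CCK neurons (-3.11 ± 0.16, adjusted p = 0.00390, and 0.0501 and 0.0678 without either CCK replicate). miR-99b-5p moved the other way, at 46724 CPM ± 897 in AVP neurons, 17566 ± 4636 in VIP neurons and 29005 ± 55.4 in CCK neurons, 2.66-fold higher in AVP than in VIP (limma adjusted p = 0.00862, and 0.0927 with median-ratio scaling). For miR-125a-5p itself, the difference between AVP and VIP did not pass. miR-125a-5p over let-7e-5p was 146 and 123 in AVP neurons, 12.5 and 14.6 in VIP and 10.7 and 12.1 in CCK neurons. The same ratio also varied widely within SCN tissue, from 20.7 to 76.6 along the time course and with 6.82 and 13.0 in LP tissue. miR-125a-5p over miR-99b-5p was 5.89 and 4.87 in AVP, 19.5 and 18.9 in VIP and 6.31 and 6.34 in CCK neurons, so AVP stood apart in the first ratio and VIP in the second.

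Other partners in neurons also differed in level. Of 7 tested, 1 was higher and 3 lower in AVP than in VIP neurons, 4 were lower in AVP than in CCK neurons, and 1 was higher and 2 lower in VIP than in CCK neurons, where 32.8%, 16.7% and 29.8% of all miRNAs passed in either direction. All calls between AVP and CCK neurons were lost without either CCK replicate, when no miRNA passed (0 of 51 calls left). let-7a-5p, made from several copies, was 5.38-fold lower in AVP than in VIP (limma adjusted p = 0.00834) and 4.96-fold lower than in CCK neurons (adjusted p = 0.0126, and 0.0989 and 0.109 without CCK replicate 1 or 2). miR-100-5p was at 933 CPM ± 158 in AVP neurons, 1713 ± 12.3 in VIP neurons and 3242 ± 131 in CCK neurons, 3.48-fold lower in AVP than in CCK (limma adjusted p = 0.00704, and likewise 0.0989 and 0.109), an order like that of miR-125b-5p. let-7c-5p was also lower in AVP neurons, 6.71-fold against CCK (limma adjusted p = 0.0258) and 2.46-fold against VIP without passing (adjusted p = 0.119). Low let-7 levels in AVP neurons were thus not limited to let-7e-5p. let-7a-5p has an edit distance of 1 to let-7e-5p and to let-7c-5p. At CT18 none of 7 tested partners passed.

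**Figure D5:**
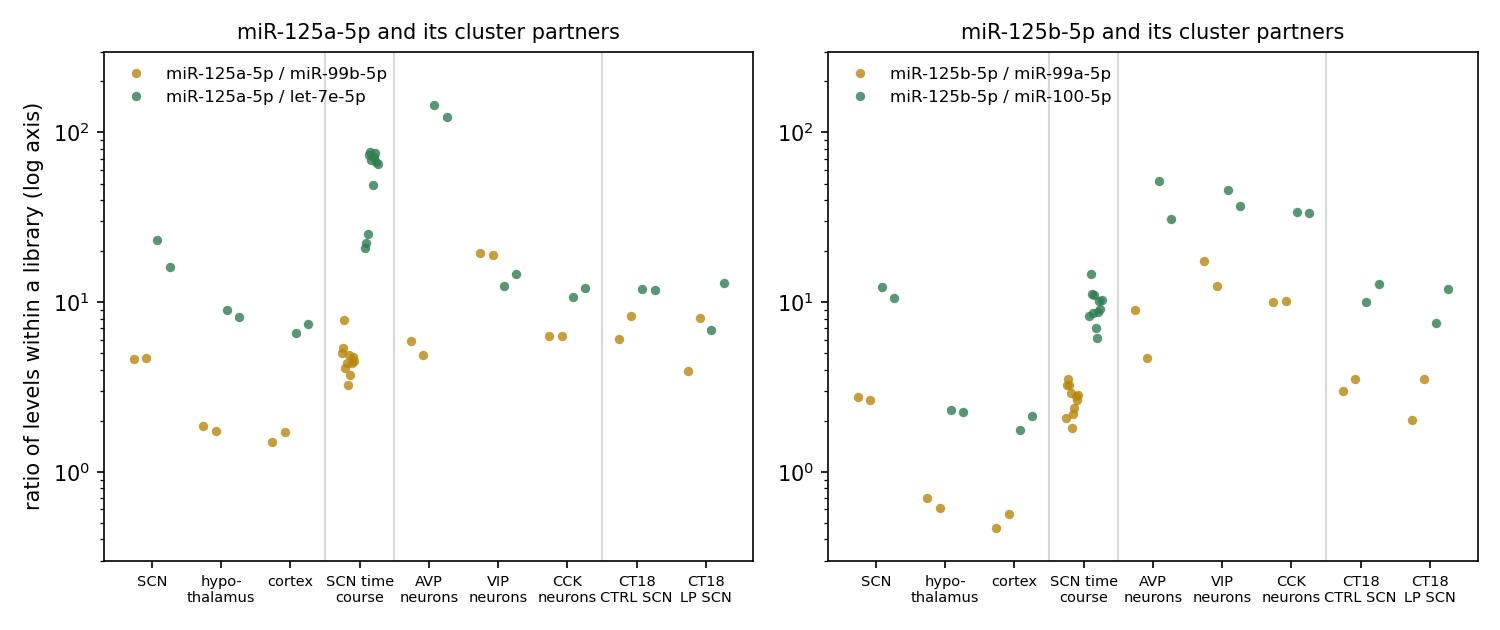
Ratios within each library on a log axis, 1 point per library, of miR-125a-5p to miR-99b-5p and let-7e-5p (left) and of miR-125b-5p to miR-99a-5p and miR-100-5p (right), with grey lines between the parts. On the left AVP neurons reach 123 and 146 over let-7e-5p, and on the right the SCN lies above hypothalamus and cortex in both ratios.

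miR-351-5p, an X-linked miRNA with the same seed, was far rarer than either 5p strand. It stood at 215.2 and 183.9 CPM in the SCN, 127.5 and 143.7 in hypothalamus and 63.8 and 93.0 in cortex. It was 1.47-fold higher in the SCN than in hypothalamus (limma adjusted p = 0.0319, a call lost without SCN replicate 1 or hypothalamus replicate 1) and 2.55-fold higher than in cortex (adjusted p = 0.000159), the same direction as miR-125a-5p and miR-125b-5p. In neurons it was at 0 and 40.8 CPM in AVP, 176.2 and 52.4 in VIP and 304.6 and 258.8 in CCK, and no pair passed.

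Over all 27 libraries the miRNAs whose log2 levels were most like those of miR-125a-5p were miR-92b-3p (Pearson r = 0.926), miR-423-5p (0.886), miR-3107-5p (0.872), miR-486-5p (0.871) and miR-3099-3p (0.849), out of 337 candidates. miR-486-5p and miR-3107-5p had nearly equal levels and count as an uncertain pair. miR-125b-5p came 41st in that order, with r = 0.288, so its seed partner was not among its nearest. The miRNAs most like miR-125b-5p were miR-702-3p (0.818), miR-495-3p (0.779), miR-484 (0.740), miR-34b-3p (0.737) and miR-1264-3p (0.733), with miR-125a-5p at place 141. Over the 11 time-course libraries miR-351-5p came first for miR-125b-5p (0.770) and miR-370-3p first for miR-125a-5p (0.834). These values describe libraries that share batch and depth within a part, and no test was run on them.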

How the data were processed

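Small RNA of 27 libraries was sequenced after Trizol extraction and library preparation by Illumina protocols, per the labels' protocols. The submitters' processing notes name Bowtie and the build GRCm38 (mm10), with no version of Bowtie. The files, as deposited, give each mature miRNA a normalized signal, in whole numbers that sum to about 1e+07 per library. All values (100%) were whole multiples of 1 step per library, rounded down, from which reads were recovered and used only for depth, floors and shares of reads. CPM is the deposited value divided by 10, and a miRNA that a table does not list was set to 0. Groups came from the labels, and 0 columns were left without a group.

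limma-trend (limma 3.58.1, R 4.3.3) was run on log2(value + 1), with 1 model each for tissues, neuron types, CT18 and the time course. A library at 0 weighs heavily on this scale. miR-125b-2-3p, at 0 in AVP replicate 2, gave a log2 difference of -0.66 between AVP and VIP neurons, with mean levels of 80.2 and 7.3 CPM. A miRNA entered the test with a deposited value of 100 or more in 2 or more libraries of its model (3 for the time course). p-values were two-sided and adjusted by Benjamini-Hochberg over all miRNAs tested, with a threshold of 0.05. Rhythm was tested with a cosine and a sine of a 24 h period together. Folds are ratios of mean CPM. Ratios of miR-125a-5p to miR-125b-5p were compared by exact permutation and their rhythm by 100000 permutations (Python 3.11.15, scipy 1.17.1).

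The members, the partner, seed and marker lists and the alternatives were chosen with earlier results of these data known. Named were all members, the listed partners, miR-351-5p and the 5 miRNAs most correlated with each 5p strand among those with a mean of at least 10 CPM. Scripts for comparing groups were tested on simulated data whose changes spared the 10 most abundant miRNAs. The reason was that under a fixed total a change in an abundant miRNA shifts all others. Both 5p strands of the family ranked within the first 10 in every library, except miR-125a-5p in cortex replicate 1 (rank 13). How well the scripts recover a change in miRNAs this abundant was not tested. Replicates of each group differed by more than sampling noise, and each library was counted as its own sample.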

Additional observations from a re-analysis of the deposited data

How the results depend on the processing

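Alternatives were median-ratio scaling, quantile normalization, a total without the family, a pseudocount of 10, no filter, the replicate number as a block, and leaving out 1 library. edgeR and DESeq2 were not run, since the files were treated as scaled values. Labels share replicate numbers 1 and 2 but say nothing of pairing, and same-numbered libraries deviated with correlations of -0.09 to 0.25, so the numbers name samples only. With the replicate block miR-125a-5p kept 0.85 between VIP and CCK neurons without passing (limma adjusted p = 0.0823), and 46 miRNAs passed there in place of 91. No other call of a 5p strand changed under the block. Both 5p strands kept their calls between the SCN and the other tissues under every alternative run. Their log2 ratio kept its direction with recovered reads in all comparisons and without any 1 library in all but that at CT18. Quantile normalization of the ratio, added after seeing the data, gave -0.71 for VIP against CCK neurons and 0.19 for hypothalamus against cortex, both reversed, and 0.17 for SCN against hypothalamus, 0.36 for SCN against cortex, 1.47 for AVP against VIP and 0.76 for AVP against CCK neurons. Quantile normalization gives miRNAs of equal rank the same value, by its construction, so it says little about strands at the top ranks. For the other changes the cause was not tested.

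Median-ratio scaling took hypothalamus against cortex to 0.011 for miR-125a-5p, 0.18 for miR-125b-5p and -0.16 for miR-125b-2-3p (-0.17 with quantile normalization). There miR-99a-5p went to -0.16 (-0.18 with quantile normalization), miR-99b-5p to -0.15 and miR-100-5p to -0.057. In AVP against VIP it gave -1.06 for miR-125a-5p, now past the threshold (limma adjusted p = 0.0444), and -0.12 for miR-125a-3p (-0.046 with quantile normalization), while a pseudocount of 10 gave 0.78 for miR-125b-2-3p. Quantile normalization gave -0.18 for miR-125a-5p in AVP against CCK. In VIP against CCK median-ratio scaling gave 0.18 for miR-125b-5p and 0.15 for miR-125b-1-3p, and quantile normalization 0.71 for miR-125b-5p (limma adjusted p = 0.0424), 0 for miR-125a-5p and 56 calls.

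Leaving out 1 library gave, in AVP against VIP, -0.66 to -0.16 for miR-125a-5p (past the threshold without VIP replicate 1, limma adjusted p = 0.0329), -1.13 to -0.72 for miR-125b-5p, -0.54 to 1.59 for miR-125a-3p, -0.91 to 0.27 for miR-125b-1-3p and -5.99 to 4.66 for miR-125b-2-3p. In AVP against CCK it gave -1.78 to -1.37 for miR-125b-5p, -10.28 to 0.37 for miR-125b-2-3p and 0 to 69 calls in place of 51, with 0 calls without either CCK replicate. In VIP against CCK it gave 0.60 to 1.10 for miR-125a-5p and 1 to 65 calls in place of 91. At CT18 it gave -0.65 to 0.078 for miR-125a-5p, -0.28 to 0.040 for miR-125b-5p, -0.12 to 0.30 for miR-125a-3p, -0.070 to 0.41 for miR-125b-2-3p, -0.37 to 0.037 for the log2 ratio of miR-125a-5p to miR-125b-5p, and 21 calls without LP replicate 2. The 3p strands in neurons rest on 0 to 558 reads per library, which limits their precision. The VIP libraries, with 2812318 and 2786568 reads, held 10 and 31 reads of miR-125b-2-3p. The part of depth in these counts was not tested.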
